A study of Homo sapiens with 8 samples.

Results

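The 9 genes described here encode the subunits of the condensin complexes (SMC2, SMC4, NCAPD2, NCAPG, NCAPH, NCAPD3, NCAPG2 and NCAPH2) and Ki-67 (MKI67), the protein that coats the chromosome periphery. They were chosen by name, as partners of topoisomerase II alpha (TOP2A) in building mitotic chromosomes, with no threshold on a measured value, though earlier results of these data were known when the group was proposed. Every probe set that the platform annotation gives to 1 of them was taken, which made 20 of the 54675 probe sets on the array and 9 of the 19775 genes named by 1 symbol. None of the 20 probe sets was annotated to a further gene.

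Condensins are ring-shaped ATP-driven machines that extrude loops of chromatin and so shorten and stiffen chromosomes for mitosis. SMC2 and SMC4 form the ATPase core shared by condensin I, which adds NCAPD2, NCAPG and the kleisin NCAPH and reaches the chromosomes after the nuclear envelope breaks down, and condensin II, which adds NCAPD3, NCAPG2 and the kleisin NCAPH2 and is nuclear throughout the cell cycle. TOP2A passes DNA strands through each other on the same chromosome axis, and Ki-67 acts as a surfactant that keeps the individual mitotic chromosomes apart. MKI67 and most condensin transcripts are known to be more abundant in proliferating than in resting cells.

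The arrays carried cRNA from HTETOP cells, a line derived from HT1080 human fibrosarcoma cells in which tetracyclines switch TOP2A expression off, a feature that all groups share. The groups were cells given 1 µg/ml doxycycline (1 array) and their vehicle (1 array), and cells given 100 µM dexrazoxane (3 arrays) and their vehicle (3 arrays), all for 24 h. Dexrazoxane, a bisdioxopiperazine, locks type II topoisomerases in a closed clamp on DNA and acts on TOP2B as well as TOP2A. Each array held RNA pooled from 3 passages, numbered 15 to 17 for the doxycycline pair, and the labels leave unsaid whether arrays with different numbers were grown separately. The p-values thus reflect spread among arrays alone, and in the paired fit described further on the spread of differences between same-numbered arrays. Part or all of that spread may be technical.

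Array medians of the log2 values were 4.81 with doxycycline and 4.82 with its vehicle, and 5.49 to 5.57 over the other 6 arrays, so no level is compared between the 2 experiments. Identical values on the doxycycline array and its vehicle array were found for 9.62% of probe sets. Of 11 mesenchymal marker genes 10 passed the filter on low values. VIM, FN1, CD44, S100A6, CDH2 and SPARC lay above the 90th percentile of all probe sets. The filter was also passed by 3 of 6 leukocyte and 3 of 5 endothelial markers, but none lay above that percentile. Of the epithelial markers EPCAM, CDH1 and KRT19 fell below the filter and CLDN4 passed it. The keratin genes KRT8 and KRT18 lay above that percentile. The mean log2 value of the 3 epithelial genes tested was 9.15 to 9.38 on dexrazoxane arrays and 8.85 to 8.98 on vehicle arrays, with KRT8 called higher in the paired fit described further on; the part of this in the results was not tested. TOP2A, which checks the labels, differed by -5.96 on the log2 scale between the doxycycline array and its vehicle. Under dexrazoxane it fell by 1.57 ± 0.12 (SE), with a mean of 10.88 ± 0.34 on dexrazoxane arrays and 12.45 ± 0.09 on vehicle arrays (SD, n = 3 each; limma adjusted p = 0.00426 paired and 0.0949 without the block).

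Promoter sequences are shown because cell cycle genes often carry short shared promoter elements. Any link between such elements and the dexrazoxane differences was not tested. RefSeq promoter windows (assembly GRCh38.p14, 250 bases before to 50 bases after a transcription start) were at hand for 8 of the 9 genes. There were 11 windows in all, with 2 each for SMC2, SMC4 and NCAPD3, and NCAPH2 was not matched. Both SMC2 windows lie inside the gene, which in RefSeq begins upstream at chr9:104088263, and no window covered that start. Both strands were searched for the cell cycle genes homology region, or CHR (TTTGAA), which the DREAM and MuvB complexes bind, for the CCAAT box bound by NF-Y (CCAAT), and for 4 E2F sites (TTTCCCGC, TTTGGCGC, TTTCGCGC and TTTGCCGC). The CHR letters occurred in 7 of the 11 windows and in 7 of the 8 genes, against 15.2% of the 35116 windows and 18.2% of the 27305 genes in the table. The 30 bases or fewer around each match are set out next, 5′ to 3′ on the gene's own strand, with the match in capitals (TTCAAA is the motif on the opposite strand).
SMC2 (chr9:104094294-104094323, plus strand): ctcgcgccgaaaTTCAAAggaataaatagt
SMC4 (chr3:160399563-160399592, plus strand): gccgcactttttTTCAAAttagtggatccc
NCAPD2 (chr12:6493945-6493974, plus strand): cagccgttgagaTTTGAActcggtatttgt
NCAPG (chr4:17810932-17810961, plus strand): tcgcgggaattaTTTGAAcgttcgagcggt
NCAPD3 (chr11:134223953-134223982, minus strand): gcgggagcgagcTTTGAAagttgagcacgg
NCAPG2 (chr7:158704755-158704781, minus strand): ccggcgggtgcgTTTGAAtctggtccg
MKI67 (chr10:128126453-128126482, minus strand): ttagcgccagaaTTTGAAtcttcgttttcg
MKI67 (chr10:128126435-128126464, minus strand): tcttcgttttcgTTTGAAttgggcgggcgc

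Counting the first transcribed base as 1 and the base before it as -1, the matches began at -3 in SMC2, -75 in SMC4, -145 in NCAPD2, -35 in NCAPG, -3 at the second NCAPD3 start, 36 in NCAPG2, and -47 and -29 in MKI67. NCAPH had none, and neither did the other windows of SMC2, SMC4 and NCAPD3. CCAAT letters were found in NCAPD2 (4 matches), NCAPD3 (2), MKI67 (2) and NCAPH (1), so 4 of 11 windows, against 34.6% of all windows. Windows with both elements numbered 3 of 11, those of NCAPD2, NCAPD3 and MKI67, against 5.90% of all windows. An E2F site was found at the second NCAPD3 start only, beginning at -249, against 3.31% of all windows. A match is a run of letters and not a mapped binding site. The 250 bases before the start are given for 3 genes, with all matches in capitals. They are those of MKI67 and NCAPD2, which hold both elements, and of NCAPH, which had no CHR match. In MKI67 the second CHR match shares 1 base with a CCAAT box.
MKI67 (chr10:128126424-128126673, minus strand): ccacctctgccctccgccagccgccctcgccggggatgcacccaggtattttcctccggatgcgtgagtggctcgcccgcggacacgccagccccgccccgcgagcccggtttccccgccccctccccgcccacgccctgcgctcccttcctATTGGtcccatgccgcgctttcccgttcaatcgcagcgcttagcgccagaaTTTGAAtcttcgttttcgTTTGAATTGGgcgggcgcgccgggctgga
NCAPD2 (chr12:6493852-6494101, plus strand): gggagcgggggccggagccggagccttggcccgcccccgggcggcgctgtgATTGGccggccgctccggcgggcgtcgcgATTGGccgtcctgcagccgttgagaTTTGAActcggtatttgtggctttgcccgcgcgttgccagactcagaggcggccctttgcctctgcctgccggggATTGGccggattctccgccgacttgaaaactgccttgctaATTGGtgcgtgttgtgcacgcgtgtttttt
NCAPH (chr2:96335516-96335765, plus strand): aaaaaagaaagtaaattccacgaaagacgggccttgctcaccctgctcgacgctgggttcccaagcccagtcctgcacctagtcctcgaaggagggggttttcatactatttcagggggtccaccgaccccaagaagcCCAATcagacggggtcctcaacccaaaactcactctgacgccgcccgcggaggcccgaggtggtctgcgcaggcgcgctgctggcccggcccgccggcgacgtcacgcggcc

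**Figure D1:**
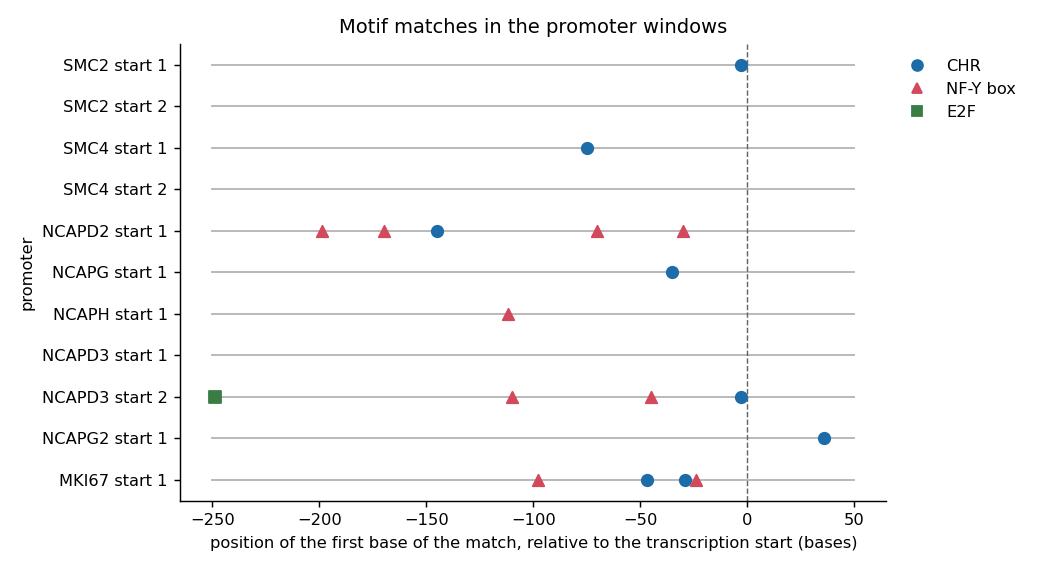
Positions of CHR matches (circles), NF-Y boxes (triangles) and E2F sites (squares) in the 11 RefSeq promoter windows of 8 genes, in bases from the transcription start (dashed line). The CHR marks appear on 7 lines, within 50 bases of the start for SMC2, NCAPG, NCAPD3, NCAPG2 and MKI67, and the single E2F mark is that of NCAPD3.

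With dexrazoxane the transcripts of all 9 genes had a lower mean than with vehicle, and in 8 of them the treated array was lower than the vehicle array of the same number in every pair. The differences were small, between -0.48 for NCAPG and -0.14 for NCAPH2 on the log2 scale, with a median of -0.41. The median over all 14731 genes tested was 0.02. In bulk RNA, fewer cells that make a transcript and less of it per cell cannot be told apart. The comparison asks whether genes that work beside TOP2A on chromosomes change when the enzyme is inhibited.

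The limma fit without a block called 0 of the 9 genes, and 0% of all genes were called lower. At an unadjusted p under 0.05 it held 1 member, NCAPH, and 765 of the 14731 genes tested. That is close to the share this bound admits by chance. In this fit the 95% intervals of all members but NCAPH (-0.87 to -0.06) included 0, and that of SMC2 ran from -1.05 to 0.31. Arrays of the same number proved to deviate together, so the replicate number was added as a block after the planned fit. The labels do not say that same-numbered arrays were paired. The fit with the block, here called the paired fit, uses SEs that limma moderates towards the spread of all genes. It called 5 members lower and 0 higher. Over all genes that fit called 2.44% lower and 2.42% higher. The 5 were SMC2, SMC4, NCAPG, NCAPH and NCAPD3. Without pair 1 the paired fit called 0 of the 9 and 56 genes lower in all, against 360 with every pair, while the differences of these 5 were -0.39, -0.49, -0.49, -0.42 and -0.42. Without pair 2 the count was 6, with 414 of the 14731 genes lower in all. Without pair 3 it was 2 (NCAPG and NCAPD3), with 200 genes lower in all. A treated array below the vehicle array in all 3 pairs was seen for 8 of 9 members, against 19.4% of all genes tested.

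SMC2, an ATPase subunit of both condensins encoded on chromosome 9 (chr9:104088263-104141419; this and the following loci are whole genes in RefSeq GRCh38.p14), had log2 values of 9.26, 8.30 and 8.44 on dexrazoxane arrays 1 to 3, against 9.58, 8.69 and 8.84 on vehicle arrays 1 to 3. The groups overlapped, because dexrazoxane array 1 stood above vehicle arrays 2 and 3, yet the gap within each pair was nearly the same. SMC2 fell by 0.37 ± 0.07 (moderated SE, n = 3 pairs), or 1.29-fold (limma paired adjusted p = 0.0332). Its pair differences were -0.32, -0.39 and -0.40, with an SD of 0.04. A second SMC2 probe set, 213253_at, differed by -0.36.

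SMC4, its ATPase partner (chr3:160399650-160434953), had 11.28, 10.75 and 10.38 on the dexrazoxane arrays, against 11.60, 11.14 and 10.98 on the vehicle arrays. Again array 1 was the highest of each group and the groups overlapped. SMC4 fell by 0.44 ± 0.08 (SE, n = 3 pairs), 1.35-fold, and the limma paired adjusted p was 0.0290. The other SMC4 probe sets, 201663_s_at and 215623_x_at, differed by -0.44 and -0.32.

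Among the condensin I subunits NCAPG (chr4:17810979-17844865), a HEAT-repeat protein that helps to anchor the complex on DNA, showed the largest difference of the 9 genes. Its values were 9.50, 8.67 and 8.60 on dexrazoxane arrays and 9.96, 9.10 and 9.13 on vehicle arrays. Each treated array lay about equally far below its own vehicle array, although treated array 1 exceeded vehicle arrays 2 and 3. NCAPG fell by 0.48 ± 0.07 (SE, n = 3 pairs), 1.39-fold, with a limma paired adjusted p of 0.0168, and its second probe set, 218663_at, differed by -0.37.

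NCAPH (chr2:96335766-96377091), the kleisin that closes the condensin I ring, had 7.48, 7.18 and 7.08 on dexrazoxane arrays and 8.04, 7.52 and 7.58 on vehicle arrays. It was the single member whose treated arrays all lay below all vehicle arrays, a pattern seen in 3.62% of all genes tested. NCAPH fell by 0.47 ± 0.08 (SE, n = 3 pairs), 1.38-fold, with a limma adjusted p of 0.0212 paired and 0.941 without the block. NCAPD2 (chr12:6494102-6531955), the other HEAT-repeat subunit, had 7.98, 7.64 and 7.52 on dexrazoxane arrays and 8.36, 7.80 and 7.78 on vehicle arrays. Its difference of -0.27 ± 0.08 (SE) was not called (limma paired adjusted p = 0.0935), and its 95% confidence interval in the paired fit ran from -0.45 to -0.09.

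**Figure D2:**
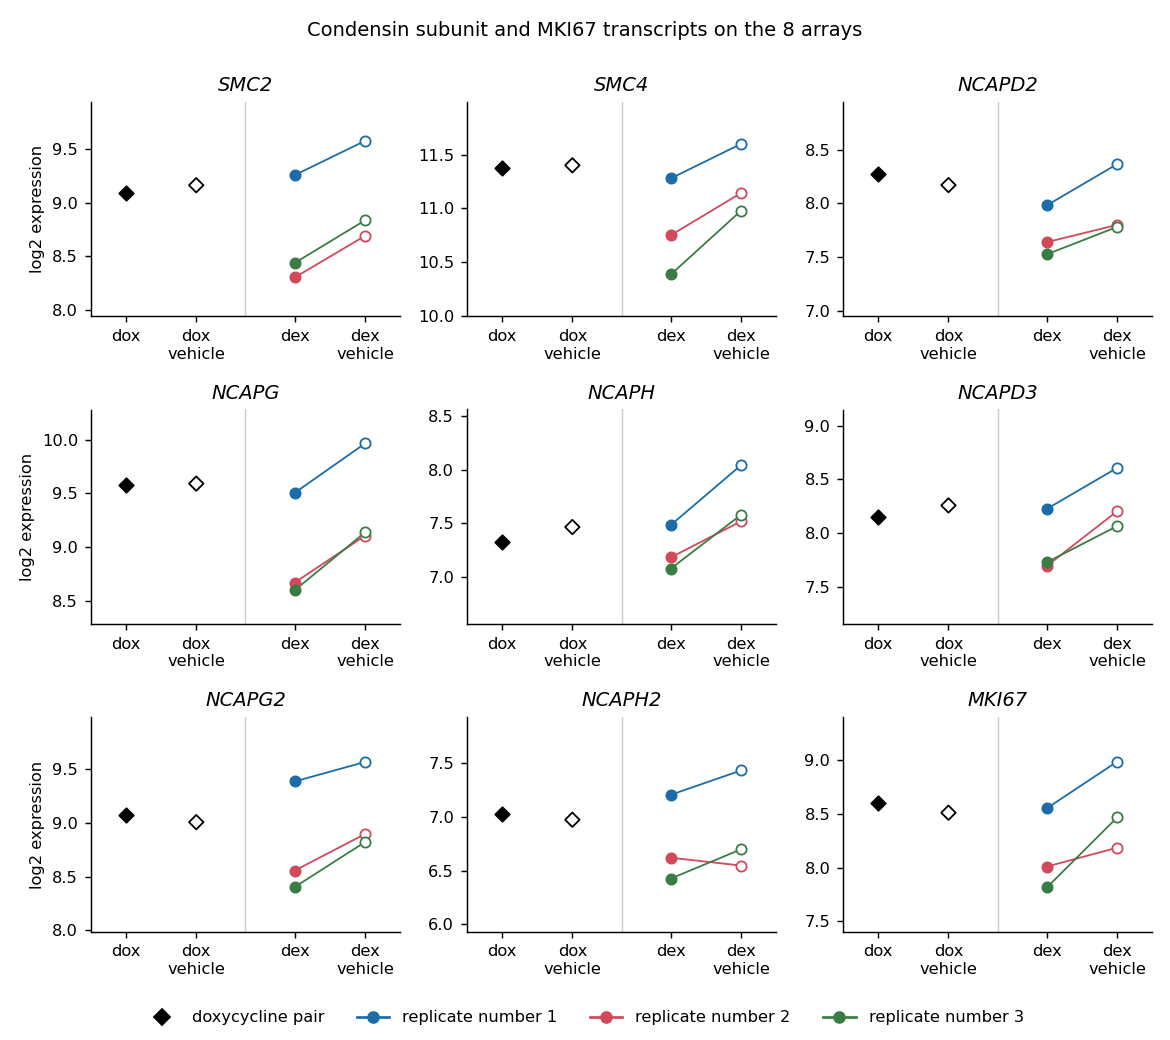
Log2 expression of the 9 genes on each array, for doxycycline (dox, filled diamond) and its vehicle (open diamond) and for dexrazoxane (dex, filled circles) and its vehicle (open circles), each panel spanning 2 log2 units. Lines join arrays of the same replicate number; all lines of the 9 genes drop towards dexrazoxane except that of NCAPH2 in pair 2, while the doxycycline pair stays within 0.14 of each other for these probe sets.

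The condensin II subunits differed less evenly. NCAPD3 (chr11:134150113-134225461), a HEAT-repeat subunit, had 8.22, 7.69 and 7.73 on dexrazoxane arrays and 8.61, 8.20 and 8.06 on vehicle arrays. Only the array numbered 1 of the treated group reached the range of the vehicle arrays. NCAPD3 fell by 0.41 ± 0.08 (SE, n = 3 pairs), 1.33-fold, with a limma paired adjusted p of 0.0277.

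NCAPG2 (chr7:158631169-158704804), the other HEAT-repeat subunit of condensin II, had 9.39, 8.56 and 8.40 on dexrazoxane arrays and 9.57, 8.90 and 8.82 on vehicle arrays. It was lower in each pair, with a mean difference of -0.31 ± 0.08 (SE), and was not called (limma paired adjusted p = 0.0650; 95% interval -0.50 to -0.13). NCAPH2 (chr22:50508224-50524780), the condensin II kleisin, had 7.21, 6.62 and 6.43 on dexrazoxane arrays and 7.43, 6.55 and 6.70 on vehicle arrays, with pair differences of -0.23, 0.07 and -0.27. It is the one member without a single direction over the pairs. Its mean difference of -0.14 ± 0.09 (SE) was not called (limma paired adjusted p = 0.392), with an interval of -0.35 to 0.06 that includes 0, and its 4 other probe sets differed by -0.20 to -0.003.

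As a description with no test, the mean of the 3 condensin I subunits differed by -0.40 between dexrazoxane and vehicle and that of the 3 condensin II subunits by -0.29. The gap between these was -0.12, made of -0.20, -0.05 and -0.09 in pairs 1 to 3, and NCAPH2 accounts for the smallest of the 6 differences behind it. The shared core of SMC2 and SMC4 differed by -0.40.

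MKI67 (chr10:128096659-128126423), the Ki-67 gene, had 8.55, 8.01 and 7.81 on dexrazoxane arrays and 8.99, 8.18 and 8.47 on vehicle arrays for 212021_s_at, its brightest probe set, used as the gene's value. Pair 2 differed least and pair 3 most, at -0.18 and -0.65. The mean difference of -0.42 ± 0.10 (SE), 1.34-fold, was just outside the bound (limma paired adjusted p = 0.0528). Its 95% interval by the moderated SE was -0.65 to -0.19, while its pair differences had an SD of 0.24. All 4 MKI67 probe sets were lower in every pair, with differences of -0.63 for 212023_s_at, -0.46 for 212022_s_at, -0.42 for 212021_s_at and -0.31 for 212020_s_at.

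**Figure D3:**
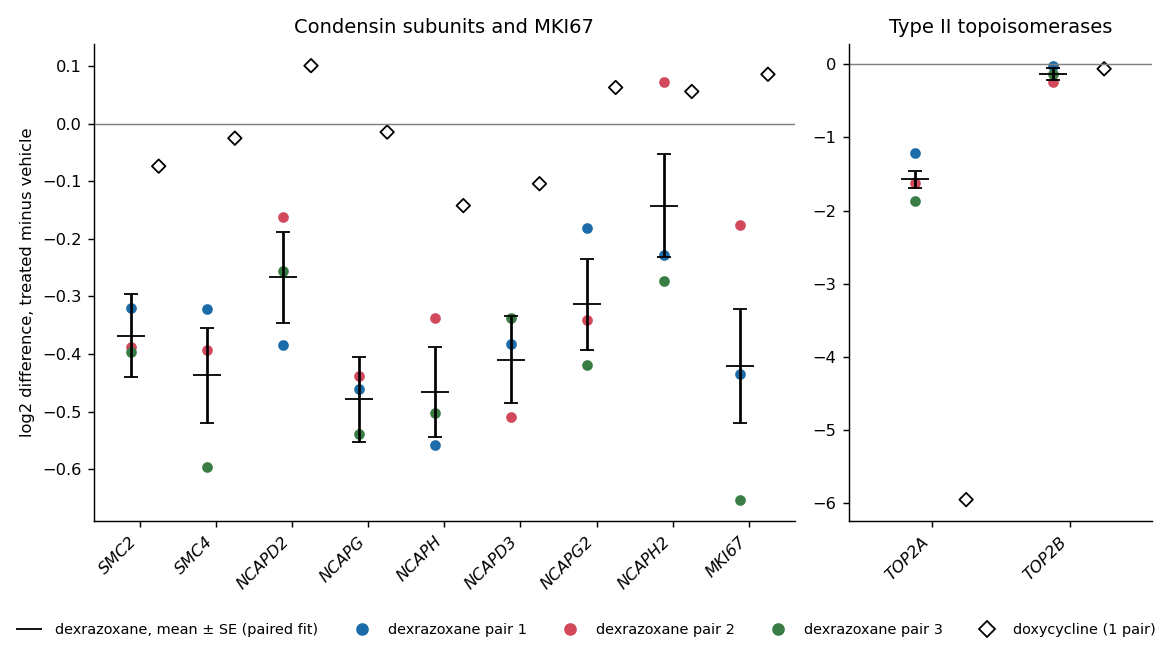
Log2 differences, treated minus vehicle, for the 9 genes (left) and the type II topoisomerase genes (right, on another scale). Short bars with whiskers are dexrazoxane means with the SE of the paired fit over 3 pairs, coloured points are the single pairs and diamonds the 1 doxycycline pair; the means of the 9 genes lie between -0.48 and -0.14, far above the -1.57 of TOP2A.

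All 41097 probe sets with 1 symbol were also fitted on their own, with no filter. All 20 probe sets of the 9 genes had a lower mean with dexrazoxane, as did 6685 of the 14731 genes tested. Lower in each of the 3 pairs were 16 of the 20, against 19.4% of all genes. These 16 were all 15 outside NCAPH2 and 1 of the 5 NCAPH2 probe sets. The shares over all probe sets are not given here for these 2 counts. In the paired limma fit 1 of the 20 was called lower, MKI67 212023_s_at (adjusted p = 0.0485), against 0.204% of all probe sets. Without pair 1, or without pair 3, 0 of the 20 were called. With the filter at the 40th percentile 3 were called: that probe set (0.0355), NCAPG 218662_s_at (0.0390) and NCAPH 212949_at (0.0468, limma paired adjusted p). The number called over all probe sets at that filter is not given here. Probe sets of 1 gene share its RNA and are not replicates.

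**Figure D4:**
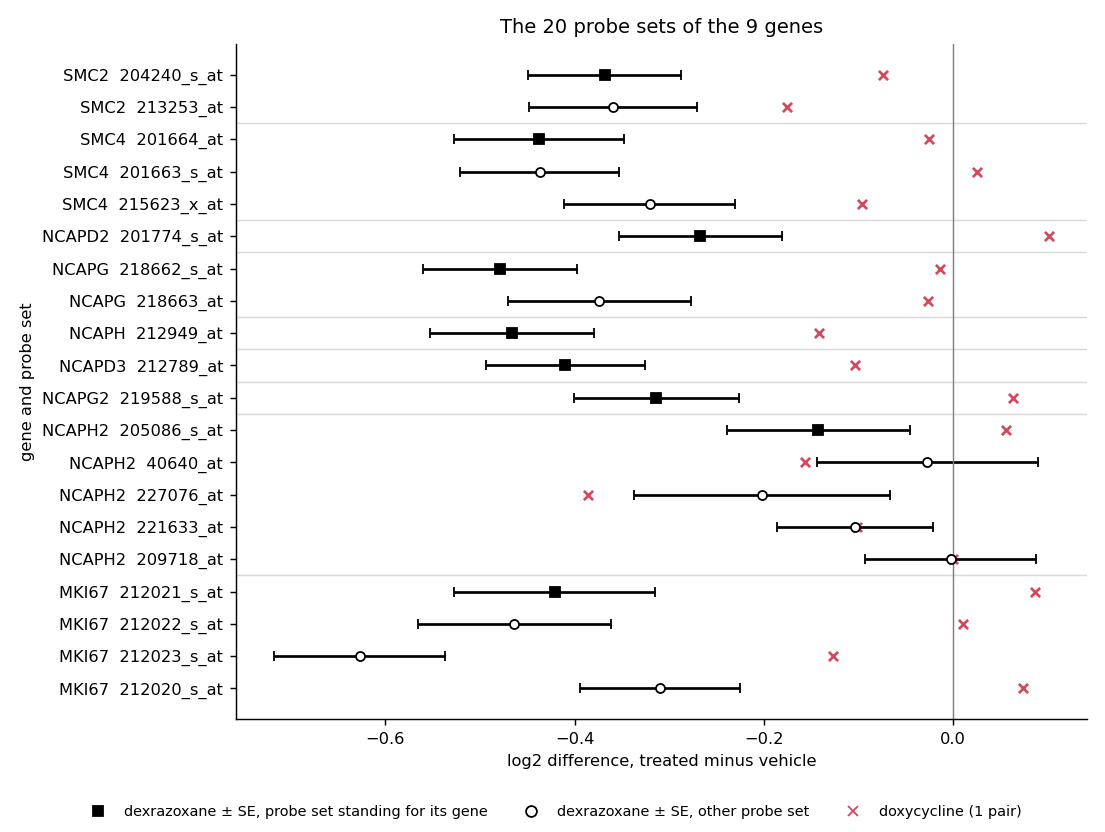
Log2 differences of the 20 probe sets: dexrazoxane minus vehicle with the SE of the paired fit (squares for the probe set that stood for its gene, open circles for the others) and doxycycline minus vehicle (crosses, 1 pair). The 15 probe sets of the 8 genes other than NCAPH2 lie between -0.63 and -0.27 for dexrazoxane, and the 5 of NCAPH2 between -0.20 and -0.003.

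For 8 of the 9 members the gap between replicate numbers was larger than that between treatments. Arrays numbered 1, treated and vehicle, stood above those numbered 2 and 3 by 0.42 for NCAPH to 0.86 for NCAPG, with a median of 0.65 over the 9 genes. Both arrays numbered 1 lay above the other 4 arrays for 8 of the 9 genes, all but NCAPH, against 24.3% of all genes tested, whose median gap was 0.01. The mean centred profile of the members was 0.26, -0.35 and -0.46 on dexrazoxane arrays 1 to 3, and 0.62, -0.05 and -0.02 on vehicle arrays 1 to 3. The labels do not explain the number, and its part in the results beyond the block was not tested.

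Over these 6 arrays the 36 pairs of members correlated at 0.79 (NCAPH with NCAPH2) to 0.98 (SMC2 with NCAPG), with a median of 0.94 (Pearson, a description, since the arrays share the gap between replicate numbers). NCAPG followed the mean of the other 8 most closely (0.998) and NCAPH2 least (0.92). The 5 tested genes outside the group whose profile was most like the members' mean over the 6 arrays were MSH6, a mismatch repair gene (0.998), PHAX, an RNA export adaptor gene (0.996), MASTL, which encodes the mitotic Greatwall kinase (0.995), WDR70 (0.995) and RBM8A, an exon junction complex gene (0.995). The differences of MSH6 (-0.42 ± 0.08, limma paired adjusted p = 0.0244) and MASTL (-0.37 ± 0.08, 0.0466) were called in the paired fit. PHAX, WDR70 and RBM8A had differences of -0.09, -0.13 and -0.11 and were not called. All 5 genes were picked by likeness to a profile that is lower with dexrazoxane in every pair. Lower values thus follow from the choice, and these p-values are no separate evidence. The correlation of TOP2A with the same profile was 0.60.

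**Figure D5:**
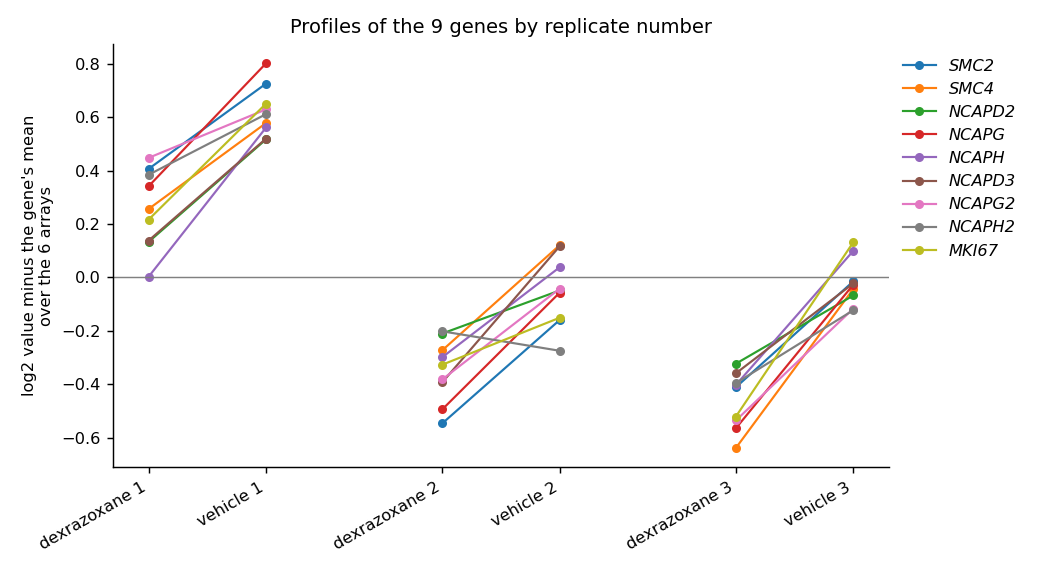
Log2 values of the 9 genes, each minus its mean over the 6 arrays, with dexrazoxane left of vehicle within each replicate number. The arrays numbered 1 lie highest, and within each number the dexrazoxane point is the lower one for all genes but NCAPH2 in number 2.

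Of 12 partners of Ki-67 at the chromosome periphery 10 were tested, and the median was -0.09. In the paired fit 1 fell and 0 rose, against 2.44% of all genes called lower. A lower value in each of the 3 pairs was seen for 6 of the 10, against the 19.4% of all genes given before. The one called was CDCA2, which encodes Repo-Man, a Ki-67-related phosphatase targeting subunit (-0.36 ± 0.08, limma paired adjusted p = 0.0470). NOLC1, a nucleolar phosphoprotein gene, and PPP1CC, the phosphatase catalytic subunit that Ki-67 and Repo-Man recruit, differed by -0.27 (0.0834) and -0.15 (0.299) and were not called.

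Of 18 regulators of condensin and scaffold partners, TOP2A among them, 16 were tested, and the median was -0.31. In the paired fit 6 fell and 0 rose, against 2.44% of all genes called lower. Among the falls were CCNB1, the mitotic cyclin (-0.40 ± 0.07, limma paired adjusted p = 0.0263), CDK1, the kinase that phosphorylates condensin (-0.53 ± 0.07, 0.0122), and the mitotic kinase gene AURKA (-0.38 ± 0.08, 0.0339). Without TOP2A it was 5 of 15, with a median of -0.31. A list of 30 G2/M and mitosis genes, which holds CCNB1, CDK1 and AURKA too, had a median of -0.39. It had 20 falls and 0 rises, against the same 2.44%, with HMMR (-0.60 ± 0.09) and CENPA (-0.38 ± 0.08) among the falls. Lower in each of the 3 pairs were 29 of these 30 and 10 of the 16 regulators and scaffold partners tested, against 19.4% of all genes. In all these lists the fit without the block called 0 genes.

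Subunits and regulators of cohesin and SMC5/6, listed together with the SMC-like gene SMCHD1, had a median of -0.18 over 16 genes tested. They gave 0 calls in either fit, where the paired fit called 2.44% of all genes lower. Most still lay lower with dexrazoxane: 14 of the 16 by their mean and 12 in each of the 3 pairs, against 19.4% of all genes for the latter. Ranked by p before the block was added, the leading genes were NSMCE4A (-0.28), STAG1 (-0.42) and NSMCE2 (-0.16), with limma paired adjusted p-values of 0.0889, 0.0529 and 0.232. The difference between this list and the condensins was not tested. TOP2B, the other type II topoisomerase gene, differed by -0.13 ± 0.08 (limma paired adjusted p = 0.373).

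Silencing TOP2A with doxycycline, a comparison of 1 array with 1 array that allows no test, left the 9 genes within 0.14 of their vehicle values on the log2 scale when each was read from its brightest probe set. The median of the members was -0.01 and that of all genes tested 0.02, while the SD of the differences over all genes was 0.15. Differences below 0 were seen for 5 of 9 members and for 40.7% of all genes.

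SMC2 had log2 values of 9.09 with doxycycline and 9.16 with vehicle, and SMC4 had 11.38 and 11.40. NCAPH had 7.32 and 7.46, a difference of -0.14. From these probe sets it was the largest, but with specific probe sets (those whose name carries no s, x or a suffix for shared sequence, where a gene has one) SMC2 (-0.18) and NCAPH2 (-0.16) were past it. NCAPH was the 1 member at least 1.1-fold lower, against 12.3% of all genes tested, and 0 members were at least 1.1-fold higher, against 13.7%. NCAPD3 had 8.15 with doxycycline and 8.26 with vehicle, a difference of -0.10.

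For the remaining genes the differences were 0.10 or less in size. NCAPG had 9.58 with doxycycline and 9.59 with vehicle, NCAPD2 8.27 and 8.17, NCAPG2 9.07 and 9.01, and NCAPH2 7.03 and 6.97. The direction for NCAPH2 depended on the probe set, since its 0.06 became -0.12 when its probe sets were averaged. MKI67 had 8.60 with doxycycline and 8.51 with vehicle, a difference of 0.09, and its 4 probe sets ranged from -0.13 to 0.09. Of all 20 probe sets 12 were below 0, against 42.4% of the 41097 probe sets. At least 1.1-fold lower were 4, namely SMC2 213253_at, NCAPH 212949_at and NCAPH2 40640_at and 227076_at, against 17.1% of those probe sets. The largest difference was that of the NCAPH2 probe set 227076_at, at 5.36 with doxycycline and 5.75 with vehicle.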

How the data were processed

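The deposited values are log2 expression per probe set of an Affymetrix array. The submitters' processing notes name RMA, which summarizes probes after background correction and quantile normalization; settings and the arrays normalized together are not given in the sources used here. Names come from the platform annotation, updated by Entrez number against RefSeq. Each gene took the values of its probe set of highest mean (all 8 arrays), and genes with that mean under the 40th percentile (4.83) were dropped, leaving 14731, all 9 members included. For dexrazoxane against vehicle, limma 3.58.1 (R 4.3.3; lmFit, eBayes, two-sided, Benjamini-Hochberg over those genes, bound 0.05) was fitted without a block, as planned, and with replicate number as a block.

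Same-numbered arrays deviated together from their group means (correlations 0.823, 0.574 and 0.716), so the numbers were taken as pairs; the labels give the shared numbers and no more. SEs and intervals printed are those of the paired fit unless stated. They use limma's moderated variance, which draws on all genes, and so differ from those of a gene's own 3 pairs. The number of arrays limits the precision. The procedure was tested on simulated data with known changes. Those arrays were built around the means of same-numbered arrays, so they cannot show whether the pairing holds. The planted changes were all larger than the difference of any member gene, so recovery at the members' sizes was not tested. The members and lists were chosen with earlier results of these data known. Named were all members and their probe sets, TOP2A and TOP2B, up to 3 genes per further list with the smallest p without the block (TOP2A and TOP2B not counted; CDCA2 is 1 of those 3), and the 5 genes most like the members' mean profile. Marker genes, KRT8 and others, are named from the marker lists.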

Additional observations from a re-analysis of the deposited data

How the results depend on the processing

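Without the block, 0 members and 0 member probe sets were called under any alternative, and 0 or 1 genes in all (1 lower with specific probe sets, with trended and robust variance and without dexrazoxane replicate 1). With the replicate block the counts of genes called lower, genes called higher and members called lower were 360, 357 and 5. They became 230, 195 and 4 with no filter, 339, 348 and 7 when a gene's probe sets were averaged, 512, 553 and 7 with the 60th percentile filter, 297, 268 and 3 with specific probe sets, 371, 366 and 6 with arrays centred on their medians, 365, 336 and 5 after quantile normalization, and 852, 992 and 8 with trended and robust variance. Leaving out a pair gave 56, 414 and 200 lower genes, 42, 416 and 211 higher genes and 0, 6 and 2 members for pairs 1, 2 and 3. The number of genes tested, 14731 in the main setting, changed with some of these choices. It was 19775 with no filter, 11096 with the 60th percentile filter, 13369 with averaged and 13938 with specific probe sets. The cause of the changes in the counts was not tested. With the block 1 member probe set was called, 3 with the 40th percentile filter and 0 to 1 without a pair.

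Of 216 member differences under alternatives 214 were below 0, but many of these are the same value repeated. The filters, the variance setting and the block leave a gene's difference as it was, so this count does not measure robustness. Leaving out single arrays moved the sizes, however. Without vehicle replicate 1 the differences shrank to -0.10 for SMC2, -0.26 for SMC4, -0.08 for NCAPD2, -0.20 for NCAPG, -0.30 for NCAPH, -0.25 for NCAPD3, -0.08 for NCAPG2 and -0.20 for MKI67. Without dexrazoxane replicate 1 they grew to -0.66, -0.67, -0.40, -0.77, -0.58, -0.58, -0.62 and -0.63 in the same order. Without dexrazoxane replicate 2 SMC2 was at -0.19 and NCAPG2 at -0.20, and without dexrazoxane replicate 3 SMC4 was at -0.23, NCAPD2 at -0.17, NCAPG at -0.32, NCAPG2 at -0.12 and MKI67 at -0.27. NCAPH2, at -0.14, turned to 0.02 without dexrazoxane replicate 3 and to 0.13 without vehicle replicate 1, with a low of -0.37 without dexrazoxane replicate 1. Over the 11 fits with the block NCAPD3 was called in 10, SMC4, NCAPG and NCAPH in 9, SMC2 in 7, MKI67 in 5, NCAPG2 in 3, NCAPD2 in 1 and NCAPH2 in 0. The 1 member at least 1.1-fold lower with doxycycline became 2 after quantile normalization, 3 with specific probe sets and 0 at 1.2-fold. In that pair NCAPH2, at 0.06, became -0.12 with averaged and -0.16 with specific probe sets, and SMC2, at -0.07, became -0.12 and -0.18.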
